A study of Homo sapiens with 36 samples.

Results

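The 10 genes described here are 8 heavy-chain constant genes of the immunoglobulin locus (IGHM, IGHD, IGHG1, IGHG2, IGHG3, IGHG4, IGHE and IGHA1), IGLL5 and JCHAIN. They are 10 of the 58302 genes counted in 36 RNA-seq libraries of the mantle cell lymphoma lines MINO, UPN-1 and JEKO, 3 in all. They were picked by symbol, with their levels and their GS716054 against DMSO values in this series already known. GS716054 is an inhibitor of the KDM5 lysine demethylases per the labels, DMSO is its vehicle, and the dose was not given in the sources used here. In each line, cells had either DMSO or GS716054 for 24 or 72 h, which makes 12 groups of 3 biological replicates. No line was genetically altered per the labels, and all were grown in the same serum-containing medium. Each line stands for the tumour of a single patient, so differences between lines are differences between 3 clones. The labels do not say whether biological replicates were cultured on separate occasions, so p-values measure the spread between these libraries.

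A B cell makes an antibody heavy chain by joining a variable region to a constant gene, and the constant gene sets the antibody class: IGHM gives IgM, IGHD gives IgD, the 4 IGHG genes give the IgG subclasses, IGHE gives IgE and IGHA1 gives IgA. IGHM and IGHD lie first in the cluster and are spliced from a shared transcript. The later genes are used after class switch recombination, and each can also give short germline transcripts that encode no antibody. A mature B cell also uses a single light chain type, kappa or lambda, and a mantle cell lymphoma usually carries IgM and IgD on its surface. IGLL5 lies in the lambda light chain locus and resembles a surrogate light chain gene, and JCHAIN encodes the joining chain that links IgM or IgA units into larger antibodies.

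The 4 IGHG genes are near copies, which bears on every count given for 1 of them. Over the 6 gene pairs, identity was 95.3 to 97.3% in the first constant exon (CH1), 93.1 to 96.7% in CH2 and 96.1 to 98.0% in CH3. The hinge between CH1 and CH2 tells the subclasses apart, so the first hinge exon of each is shown (GRCh38, minus strand, 5′ to 3′).

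IGHG1, chr14:105742341-105742385: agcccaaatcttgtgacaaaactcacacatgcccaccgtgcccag

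IGHG2, chr14:105644068-105644103: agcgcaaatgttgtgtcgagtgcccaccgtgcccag

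IGHG3, chr14:105770669-105770719: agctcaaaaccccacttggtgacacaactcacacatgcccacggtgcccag

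IGHG4, chr14:105625344-105625379: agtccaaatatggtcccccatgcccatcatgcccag

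These exons are 45, 36, 51 and 36 bases long, and IGHG3 has 4 hinge exons where the other genes have 1. The start of the CH3 exon shows the opposite case, with capitals for the bases that differ from IGHG1: IGHG2 differs at 2 of 60 bases, IGHG3 at 3 and IGHG4 at 4.

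IGHG1, chr14:105741736-105741795: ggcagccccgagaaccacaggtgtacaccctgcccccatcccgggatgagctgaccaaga

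IGHG2, chr14:105643466-105643525: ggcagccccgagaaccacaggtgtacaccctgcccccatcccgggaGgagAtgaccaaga

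IGHG3, chr14:105769500-105769559: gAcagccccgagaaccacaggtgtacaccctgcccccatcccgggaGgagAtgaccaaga

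IGHG4, chr14:105624739-105624798: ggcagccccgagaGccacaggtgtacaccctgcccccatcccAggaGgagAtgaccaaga

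A read between such differing bases, in a stretch that the genes share letter for letter, cannot be placed on 1 gene. Of all 75-base windows within exons, 42.3% in IGHG1, 28.8% in IGHG2, 32.9% in IGHG3 and 26.2% in IGHG4 also occurred in another constant gene, and 19.5% did so in IGHA1. No such window of IGHM, IGHD or IGHE was shared. The genes compared were the heavy-chain members, the second IgA gene IGHA2 and the pseudogene IGHGP. Other pseudogenes and windows across exon junctions were not compared. The window length is an example, since the read length was not given in the sources used here. The IGHG genes are therefore also given as their sum.

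All heavy-chain members lie on the minus strand of chromosome 14, between IGHE at chr14:105597691-105601728 and IGHM at chr14:105851705-105856218. IGLL5 lies at chr22:22887780-22896111 on the plus strand, and 43.5% of its exon sequence is also exon of IGLJ1 or IGLC1 on the same strand. IGLC1, whose single exon lies wholly within IGLL5, was listed at 0 in all 36 libraries, so IGLL5 values describe what was countable outside it. JCHAIN lies at chr4:70655541-70681817 on the minus strand.

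Reads assigned to genes numbered 8784815 to 14970876 per library (median 11926903). They were 40.7 to 44.9% of all reads, against 43.3 to 45.9% in no annotated feature. A count of 0 allows up to 3 reads, which is 0.196 CPM in the deepest and 0.353 CPM in the shallowest library. CPM is a count scaled by edgeR to a common library total with TMM factors, and floors and intervals cover counting error only. All 8 B cell markers and the 3 mantle cell lymphoma markers (CCND1, SOX11 and CD5) had a median of at least 1 CPM in each line. Summed T cell markers were at most 32 CPM and summed myeloid markers at most 6.58 CPM in any library, with CD2, S100A8 and S100A9 at 0 in all. In bulk RNA, fewer cells with a transcript and less transcript per cell cannot be told apart.

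IGHM was by far the main constant gene in all lines. It took 69.6 to 89.8% of the members' reads, and the members together took 0.285 to 1.19% of the gene reads of a library. Per kilobase of exon in DMSO at 24 h, IGHM stood at 2727 ± 203 CPM for JEKO, 2396 ± 173 for MINO and 2009 ± 85.4 for UPN-1 (SD, n = 3). That was 92.4, 86.4 and 95.9% of the heavy-chain level per kilobase. Next came IGHG3, the leading IGHG gene, and IGHD. They stood within their spread of each other in JEKO (83.1 ± 14.8 and 69.7 ± 7.53 CPM per kilobase), with IGHG3 higher for MINO (208 ± 2.25 and 61.9 ± 8.99) and lower for UPN-1 (35.6 ± 5.34 and 47.5 ± 5.77).

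The other 8 members differed in at least 1 pair of lines, and IGHM and IGHD passed the test in none. In DMSO at 24 h, IGHM was 4824, 4946 and 5534 CPM in the JEKO replicates, 4409, 4202 and 4836 in MINO and 3787, 3901 and 3586 in UPN-1. The UPN-1 libraries lay below those of the other lines, but no pair of lines passed edgeR's quasi-likelihood test with Benjamini-Hochberg adjustment (log2 fold change of UPN-1 against JEKO -0.44 ± 0.251 SE, adjusted p = 0.156, n = 3). IGHD also missed the threshold of 0.05 in each of the 3 pairs. In a fit of the 6 libraries compared alone, UPN-1 passed below JEKO and MINO for both genes (IGHM -0.46 and -0.31, IGHD -0.58 and -0.43). By the same test over 17980 genes, 8 of 10 members differed between MINO and JEKO, 7 between UPN-1 and JEKO and 7 between UPN-1 and MINO. Among all genes 48%, 44.9% and 44.4% were called in those comparisons. The members were picked with these levels known, so nothing is read from their counts, and the tests set each difference beside its replicate spread. These comparisons use the DMSO libraries of 24 h, and each pair of lines shares them with another pair.

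**Figure D1:**
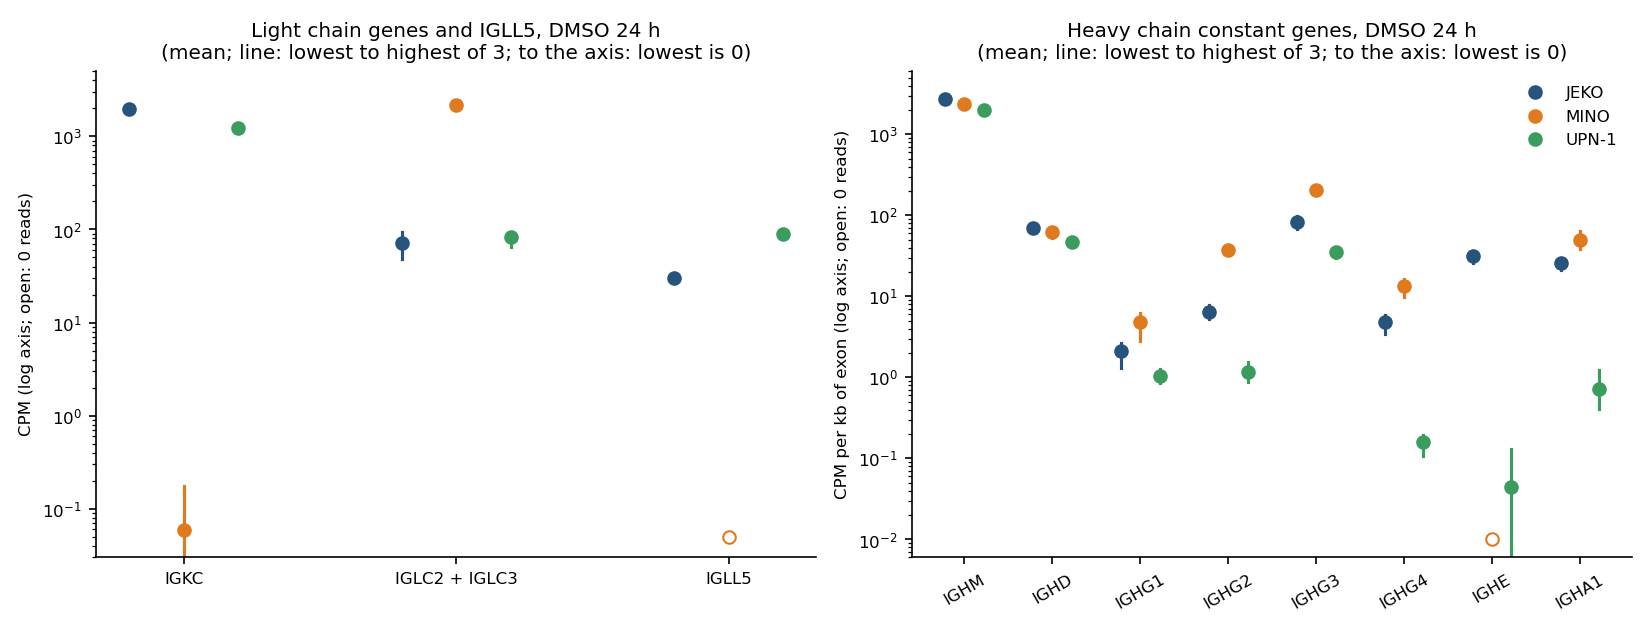
Left: CPM of the kappa constant gene IGKC, the sum of the lambda constant genes IGLC2 and IGLC3, and IGLL5 in DMSO at 24 h; right: CPM per kilobase of exon of the heavy-chain members. Points are means of 3 libraries, lines run from the lowest to the highest library, and both axes are logarithmic; IGHM leads in all 3 lines, IGKC stands high in JEKO and UPN-1 and the lambda genes in MINO, and IGHE stands at 31.2 CPM per kilobase in JEKO and at 0 in MINO.

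The IgG genes were highest in MINO and lowest in UPN-1. Their sum was 736, 776 and 754 CPM in the MINO replicates, 324, 285 and 224 in JEKO and 122, 116 and 91.2 in UPN-1, so the ranges of the lines did not overlap. The log2 fold change of the sum was 1.45 ± 0.233 (SE) in MINO against JEKO (edgeR adjusted p = 5.09e-06, n = 3) and -1.34 ± 0.234 in UPN-1 against JEKO (edgeR adjusted p = 1.89e-05, n = 3). IGHG2 showed the wider spread of the 2 most abundant IGHG genes. Its log2 fold change was 2.55 ± 0.279 in MINO against JEKO and -2.49 ± 0.321 in UPN-1 against JEKO, where IGHG3 had 1.32 ± 0.228 and -1.22 ± 0.229. IGHG4 was close to the floor in UPN-1, with 5, 5 and 4 reads in DMSO at 24 h where JEKO had 156, 211 and 115. Summed over all 8 heavy-chain genes, the lines did not pass the test, at -0.04 ± 0.247 for MINO and -0.50 ± 0.248 for UPN-1 against JEKO (edgeR adjusted p = 0.901 and 0.1). IGHG1 was the lowest IGHG gene per kilobase in JEKO and MINO, and its difference between UPN-1 and JEKO (-0.99 ± 0.378, edgeR adjusted p = 0.0316) was lost without any of 4 libraries: JEKO replicate 1 or 2 or UPN-1 replicate 2 or 3 (adjusted p 0.0791 to 0.135).

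IgE transcripts set JEKO apart. IGHE had 465, 722 and 652 reads (41.6, 55.7 and 54.1 CPM) in the JEKO replicates in DMSO at 24 h. It had 0 reads in all 12 MINO libraries, and 2 reads in 1 of the 12 UPN-1 libraries with 0 in the rest. The JEKO mean was at least 143-fold higher than MINO, taking the floor of 3 reads per library. The ratio of its counts to those of UPN-1 was 847 (95% interval 234 to 7000, counting error only). No 75-base window within IGHE exons occurs in the other constant genes compared. Pseudogenes of IGHE were not among them, so whether its reads could be shared with those was not tested.

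IgA transcripts followed another order. IGHA1 was 54.3, 91.2 and 69.0 CPM in MINO, 30, 37.8 and 42.3 in JEKO, and 0.579, 0.75 and 1.76 in UPN-1. UPN-1 lay far below JEKO, with a log2 fold change of -5.06 ± 0.502 (edgeR adjusted p = 8.33e-10, n = 3). MINO was above JEKO by 0.96 ± 0.359 (edgeR adjusted p = 0.0266, n = 3), a call that was lost without JEKO replicate 1 or 2 or MINO replicate 2 (adjusted p 0.0572 to 0.128).

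IGLL5 was near absent from MINO and differed between the other lines. It stood at 26.4, 30.9 and 34.0 CPM in JEKO and 95, 89.6 and 86.3 in UPN-1 in DMSO at 24 h, and at 0 in MINO, where 1 read was found in 1 of 12 libraries. UPN-1 was above JEKO by 1.57 ± 0.163 on the log2 scale (edgeR adjusted p = 1.37e-08, n = 3). Against the floor in MINO, JEKO was at least 86.2-fold higher and UPN-1 at least 256-fold higher. The light chains followed the same division of lines. IGKC, the kappa constant gene, was 1957 ± 74.7 CPM in JEKO and 1227 ± 122 in UPN-1 (SD, n = 3), against 4 reads over all 12 MINO libraries. IGLC2 and IGLC3, lambda constant genes, together stood at 2179 ± 141 CPM in MINO, 71.3 ± 23.3 in JEKO and 82.2 ± 15.7 in UPN-1. The lambda genes IGLC6 and IGLC7 were also highest in MINO (937 ± 59.0 and 307 ± 54.8 CPM) and had 203 ± 37.6 and 189 ± 20.6 in JEKO and 183 ± 66.1 and 151 ± 45.6 in UPN-1. The line with the most lambda constant reads was thus the line without countable IGLL5. IGLL1, a surrogate light chain gene of early B cells, was 73.4 ± 22.5 CPM in UPN-1 and 0.358 and 0.0392 CPM in JEKO and MINO.

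JCHAIN, whose product joins IgM and IgA units, was highest in MINO. It was 731, 879 and 613 CPM in MINO, 335, 395 and 353 in JEKO and 457, 356 and 288 in UPN-1. MINO was above JEKO by 1.04 ± 0.352 on the log2 scale (edgeR adjusted p = 0.015, n = 3) and UPN-1 was below MINO, at -1.01 ± 0.351 (edgeR adjusted p = 0.0191, n = 3). Both calls were lost without MINO replicate 2 (adjusted p 0.0615 and 0.0764). The first was also lost without JEKO replicate 1 (0.0507), and the second without UPN-1 replicate 2 or 3 (0.0546 and 0.0905). Between UPN-1 and JEKO the difference was 0.02 ± 0.348 (edgeR adjusted p = 0.967, n = 3). Per kilobase, JCHAIN stood at 479 ± 86.2 CPM in MINO, 233 ± 19.8 in JEKO and 238 ± 54.9 in UPN-1, between IGHM and all other members.

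**Figure D2:**
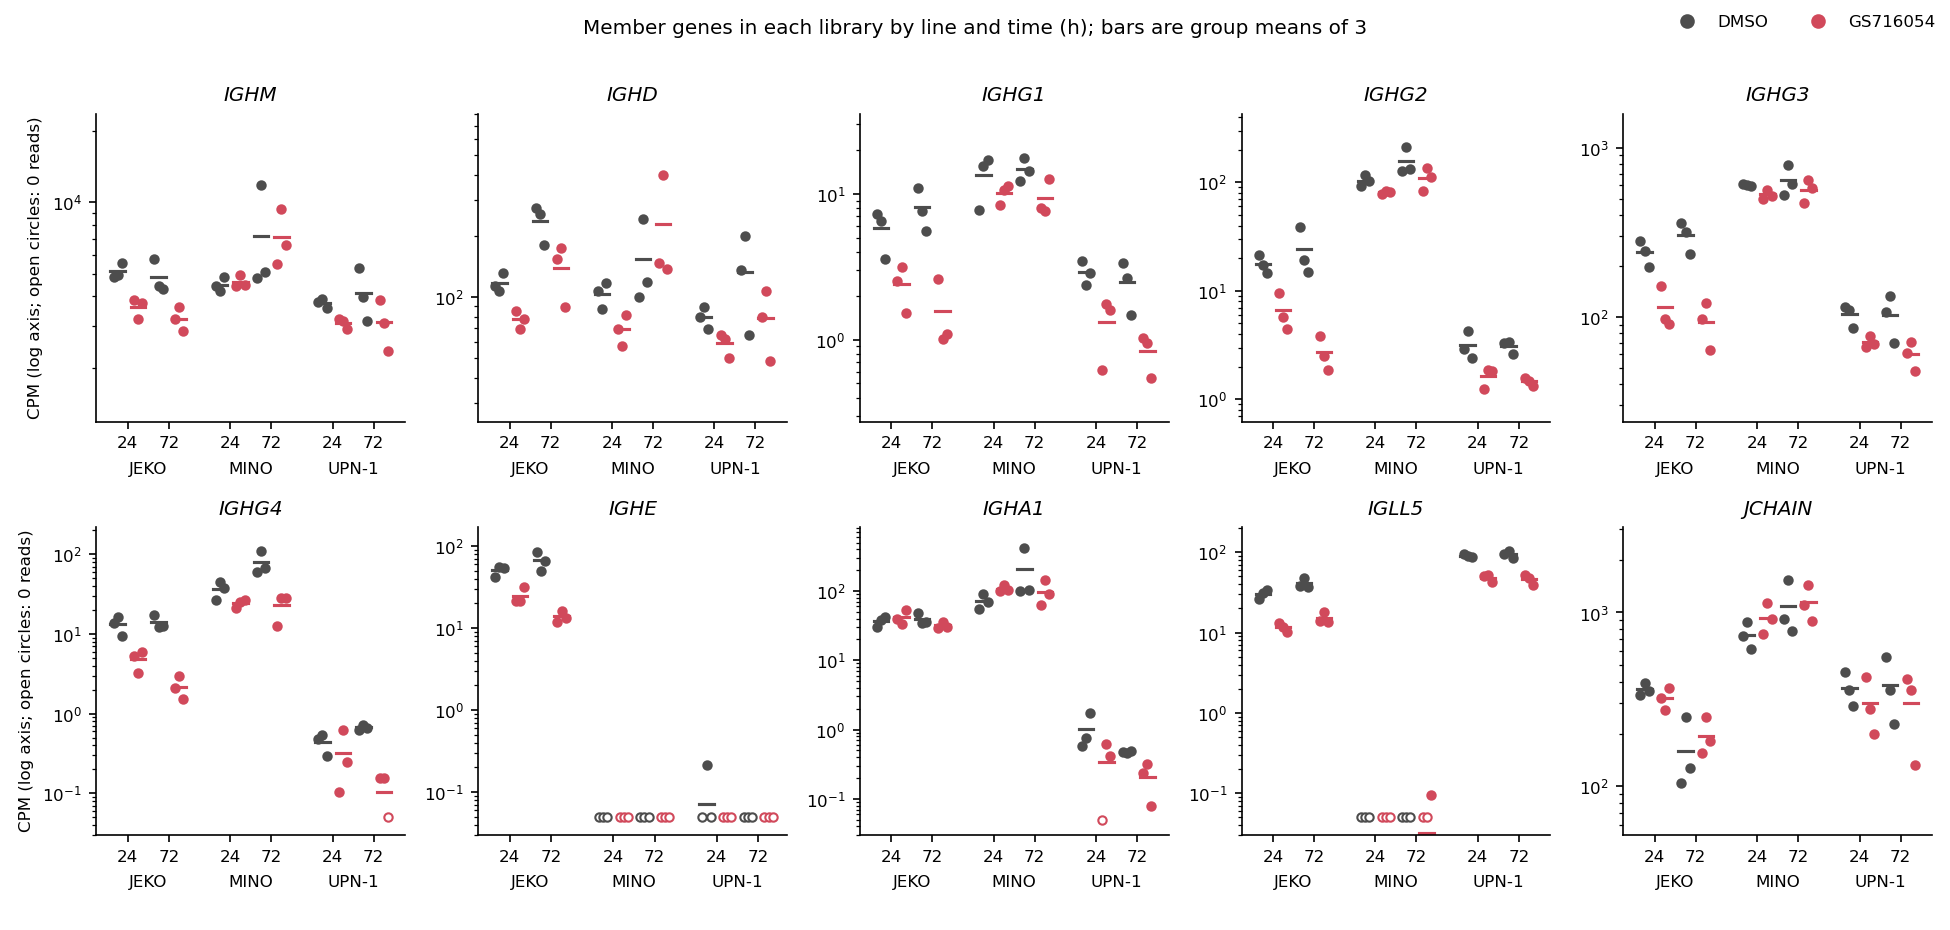
CPM (log axis) of each of the 10 genes in every library, by line, time in hours and agent; bars are means of 3 libraries and open circles are libraries with 0 reads. The GS716054 libraries of JEKO lie below the DMSO libraries for all genes but IGHA1 and JCHAIN, and the MINO panels show 1 DMSO library of 72 h far above its group for IGHM and IGHA1.

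Ordered by group mean over the 12 groups, IGHM ran from 7209 ± 3976 CPM in MINO with DMSO at 72 h to 3103 ± 156 in UPN-1 with GS716054 at 24 h. In that order every group of IGHM, and of IGHD, overlapped its neighbour, so no step stands clear of the spread. The order had 1 clear step for IGHG1 and JCHAIN, 2 for IGHG3, 3 for IGHE and IGHA1 and 5 for IGHG2, IGHG4 and IGLL5.

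In JEKO, the IgG genes, IGHE and IGLL5 had log2 fold changes below -1 with GS716054, IGHM and IGHD smaller ones, and IGHA1 and JCHAIN overlapped. All 3 GS716054 libraries lay below all 3 DMSO libraries for 8 of 10 members at 24 h and again at 72 h, where 5.63% and 4.65% of genes with at least 30 reads over the 6 libraries did so. The model called 1 of 10 members lower at 24 h (IGLL5) and 6 at 72 h (IGHG1, IGHG2, IGHG3, IGHG4, IGHE and IGLL5), against 0.018% and 0.0959% of 16690 genes called lower. Of 6 fits that each leave out 1 library at 72 h, only those lacking DMSO replicate 2 or the first GS716054 replicate kept IGHG1 (log2 fold change over all 6 of -2.93 to -2.07). Leaving out the third GS716054 replicate also lost IGHG3 (-1.51), with 4 members still called. The members were picked with these contrasts known, so nothing is read from those counts.

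IGHG2 had the lowest log2 fold change at 72 h. It stood then at 39.1, 19.1 and 14.8 CPM in DMSO and 3.87, 2.53 and 1.86 with GS716054. The highest treated library was well under the lowest control (log2 fold change -3.15 ± 0.399 SE, and -1.45 ± 0.371 at 24 h). IGHG4 went from 17.4, 12.3 and 12.7 to 2.09, 2.96 and 1.51 CPM at 72 h (-2.69 ± 0.311, and -1.49 ± 0.293 at 24 h). IGHG3, which carries most of the IgG reads, stood at 359, 318 and 234 CPM in DMSO and 96.5, 120 and 63.9 with GS716054 at 72 h (-1.70 ± 0.259, and -1.09 ± 0.256 at 24 h). The treated and control ranges of these genes were apart at both times. IGHG1 had 75 to 152 reads a library in DMSO and 14 to 35 with GS716054 at 72 h (-2.36 ± 0.423). Since these genes share windows, their sum is the safer value: 324, 285 and 224 CPM against 170, 109 and 102 at 24 h (-1.13 ± 0.257), and 427, 358 and 267 against 105, 126 and 68.4 at 72 h (-1.81 ± 0.262).

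IGHE, which shares no window with the genes compared, differed in the same direction as the IgG genes. It was 41.6, 55.7 and 54.1 CPM in DMSO and 21.3, 21.3 and 31.7 with GS716054 at 24 h, and 84.8, 49.1 and 66.4 against 11.8, 16.3 and 13.4 at 72 h. Its log2 fold changes were -1.04 ± 0.218 and -2.27 ± 0.226. IGLL5 stood at 26.4, 30.9 and 34.0 CPM against 13.1, 11.6 and 10.2 at 24 h and 38.5, 48.5 and 36.5 against 14.1, 18.1 and 13.5 at 72 h. Its log2 fold change was about as large at 24 h (-1.40 ± 0.174) as at 72 h (-1.43 ± 0.17), where those of IGHE and the IgG sum were larger at 72 h than at 24 h. The call at 24 h was lost without any single library other than DMSO replicate 1, with the log2 fold change at -1.50 to -1.31. Whether the 2 times differ was not tested.

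The genes at the front of the cluster showed smaller differences in JEKO. IGHM was 4824, 4946 and 5534 CPM in DMSO and 3861, 3212 and 3756 with GS716054 at 24 h, and 5766, 4429 and 4303 against 3207, 3597 and 2864 at 72 h (-0.51 ± 0.204 and -0.58 ± 0.205). IGHD had 113, 107 and 131 against 85.3, 69.9 and 77.9 CPM at 24 h, and 275, 257 and 181 against 154, 175 and 88.8 at 72 h (-0.60 ± 0.222 and -0.77 ± 0.22). For both genes the treated libraries lay below all controls at each time. So did those of IGKC, the kappa constant gene, which is not a member. IGKC had 1871 to 2005 CPM in DMSO and 946 to 1507 with GS716054 at 24 h, and 1568 to 2458 against 1249 to 1378 at 72 h. IGHA1 had 30, 37.8 and 42.3 CPM in DMSO and 39.2, 33.9 and 54.0 with GS716054 at 24 h (0.20 ± 0.195), and its value at 72 h was -0.31 ± 0.195. JCHAIN had 335, 395 and 353 against 324, 274 and 366 CPM at 24 h (-0.18 ± 0.267) and 0.29 ± 0.268 at 72 h. Treated and control libraries of IGHA1 and JCHAIN overlapped. IGHA2, a second IgA gene that is not a member, had 6.8 to 7.48 CPM in DMSO and 12.4 to 18.4 with GS716054 at 24 h. At 72 h IGHA2 overlapped, at 6.58 to 20.9 against 11.4 to 13.7 CPM.

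Same-numbered JEKO libraries deviated together at 72 h, and a fit with a replicate block within the time called 7 members lower there, IGHD being added, against 1.44% of genes. Marker sums differed beside these values: the sum of CCND1, SOX11 and CD5 was 2630 to 2787 CPM in DMSO and 1463 to 1827 with GS716054 at 24 h, and 2295 to 2939 against 1312 to 2014 at 72 h. CCND1 makes up most of that sum: its log2 fold change was -0.75 ± 0.204 and -0.66 ± 0.203, where SOX11 had 0.28 ± 0.209 and -0.01 ± 0.208 and CD5 0.22 ± 0.248 and 0.63 ± 0.246. The part of these markers in the result was not tested.

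**Figure D3:**
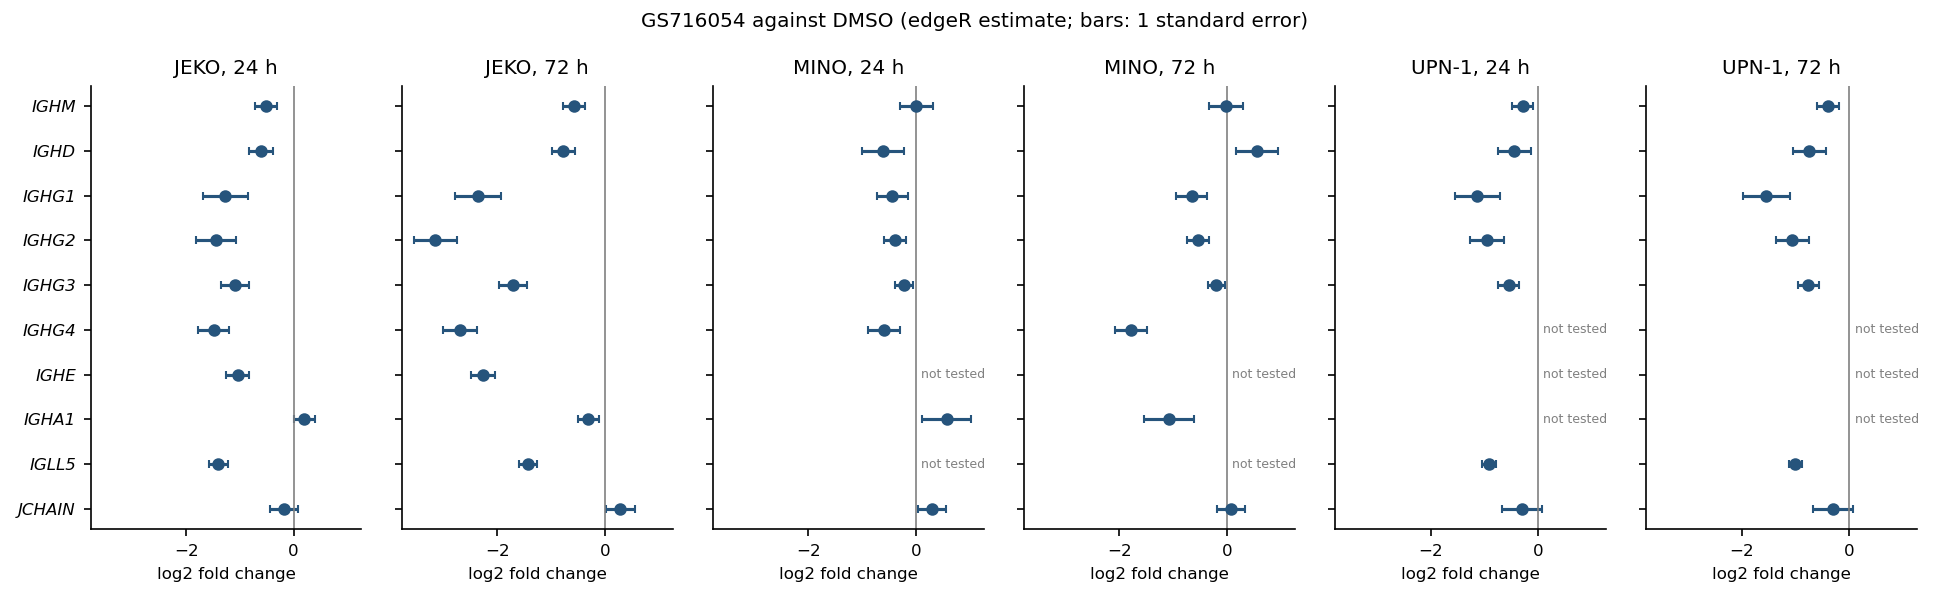
Log2 fold change of GS716054 against DMSO for each gene in each line and time, with bars of 1 standard error from the edgeR model; genes with too few reads in a line are marked as not tested. JEKO at 72 h holds the lowest values, down to -3.15 for IGHG2, while IGHM stays between -0.58 and 0.01 in all 6 panels.

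In UPN-1 the same genes leaned the same way by smaller amounts, and IGLL5 stood clearest of its spread. All treated libraries lay below all controls for 6 of 10 members at 24 h and 5 at 72 h. Among genes with at least 30 reads over the 6 libraries, 6.98% and 3.73% did so. Of the 5 at 72 h, IGHG4 and IGHA1 rest on 0 to 8 reads a library and did not reach 30, so that share does not cover them. IGLL5 was called lower at both times, the other 6 tested members at neither, and 0.0197% and 0.059% of 15248 genes were called lower. The contrasts were known when the members were picked.

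IGLL5 in UPN-1 was 95, 89.6 and 86.3 CPM in DMSO and 50.6, 51.8 and 42.6 with GS716054 at 24 h, and 95.1, 103 and 84.6 against 52.3, 48.5 and 39.1 at 72 h. That is a log2 fold change of -0.91 ± 0.13 and -1.0 ± 0.129, with a wide gap between treated and control libraries. The call at 24 h was lost without any single library other than DMSO replicate 3, with the log2 fold change at -0.97 to -0.83. IGHG3 was 115, 109 and 85.7 CPM against 66.0, 76.6 and 69.4 at 24 h (-0.55 ± 0.197), and at 72 h 107, 132 and 70.4 against 61.5, 71.0 and 47.9 (-0.76 ± 0.197), where 1 treated library passed the lowest control. IGHG2 was 3.33, 3.36 and 2.62 CPM against 1.57, 1.49 and 1.32 at 72 h (-1.06 ± 0.311). It rests on 17 to 42 reads a library, and IGHG1, at -1.54 ± 0.432, on 7 to 42. The IgG sum gave -0.58 ± 0.196 at 24 h and -0.79 ± 0.196 at 72 h.

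IGHM in UPN-1 was 3787, 3901 and 3586 CPM in DMSO and 3221, 3162 and 2926 with GS716054 at 24 h, without overlap (-0.29 ± 0.202). At 72 h it was 5252, 3994 and 3141 against 3869, 3092 and 2365, where the replicates spread more than the agents differ (-0.39 ± 0.202). IGHD, spliced from the same transcript, gave -0.44 ± 0.313 and -0.74 ± 0.309. JCHAIN overlapped between agents at both times (-0.30 ± 0.373 and -0.31 ± 0.373). In each number the treated IGHM library of 72 h was below its control, and same-numbered libraries deviated together at this time. With the replicate block within the time all 7 tested members were called lower at 72 h, against 3.29% of genes. IGKC was also lower with that block at 72 h (-0.31 ± 0.0676, edgeR adjusted p = 0.00715) and not called without it. The summed mantle cell lymphoma markers were 2142 to 2876 CPM in DMSO and 1541 to 2048 with GS716054 at 72 h. The log2 fold change was -0.50 ± 0.164 for CCND1, 0.24 ± 0.148 for SOX11 and -0.06 ± 0.356 for CD5, and the part of these markers was not tested.

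MINO, the line with the most IgG, had its lowest log2 fold changes at 72 h, in IGHG4 and IGHA1. At 24 h edgeR called 0 of 8 tested members, with 0 at an unadjusted p under 0.05 and 0 by DESeq2, against 2.39% of 15028 genes called by edgeR. At 72 h it called IGHG4 alone, against 2.05% of genes called lower, with 4 at an unadjusted p under 0.05 (IGHG1, IGHG2, IGHG4 and IGHA1) and 1 by DESeq2. All treated libraries lay below all controls for IGHD, IGHG2 and IGHG3 at 24 h and for IGHG4 at 72 h, where 15% and 9.81% of genes did so. They lay above for IGHA1 at 24 h, as for 19.9% of genes. These shares are of genes with at least 30 reads over the 6 libraries. IGHA2, not a member and low in MINO, had 0.942 to 2.03 CPM in DMSO and 2.72 to 3.43 with GS716054 at 24 h. At 72 h IGHA2 had 2.61 to 3.64 against 0.663 to 3.99 CPM.

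IGHG4 in MINO was 60.3, 110 and 67.4 CPM in DMSO and 12.5, 28.4 and 28.0 with GS716054 at 72 h (-1.79 ± 0.3). At 24 h it was 26.8, 45.0 and 37.8 against 21.5, 25.2 and 27.1 (-0.60 ± 0.296), with 1 treated library just above the lowest control. IGHG3 was near level at both times, at -0.22 ± 0.16 and -0.20 ± 0.16, and the IgG sum, which it dominates, gave -0.26 ± 0.172 and -0.35 ± 0.172. IGHG2 had 127, 214 and 134 CPM against 83.5, 136 and 112 at 72 h (-0.54 ± 0.202), and its ranges overlapped. IGHG1 gave -0.66 ± 0.285 at 72 h. IGHM gave 0.01 ± 0.309 at 24 h and -0.02 ± 0.309 at 72 h, and JCHAIN 0.30 ± 0.259 and 0.07 ± 0.259. Both genes overlapped between agents at each time.

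Replicate 2 of MINO at 72 h stood apart in both agents. IGHM was 4777, 11797 and 5053 CPM in DMSO and 5468, 9398 and 6623 with GS716054, and IGHA1 was 98.5, 417 and 105 against 62.8, 142 and 89.0. IGHD was 99.9, 242 and 119 against 148, 401 and 137. The second replicate was the highest of its group in all these cases. Without DMSO replicate 2 the log2 fold changes were 0.49 for IGHM, 1.0 for IGHD and -0.11 for IGHA1, and without GS716054 replicate 2 they were -0.26, -0.11 and -1.44, where all libraries gave -0.02, 0.56 and -1.08 ± 0.464. The directions of IGHM and IGHD, and the size of the IGHA1 difference, therefore depend on single libraries at this time.

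Same-numbered MINO libraries deviated together at both times. With the block within the time, 4 members were called at 24 h (IGHD, IGHG2 and IGHG4 lower, IGHA1 higher) where 15.8% of genes were called, and 5 at 72 h (IGHG1, IGHG2, IGHG4 and IGHA1 lower, IGHD higher) where 20.2% were. Summed B cell markers were 2882 to 3559 CPM in DMSO and 5157 to 5510 with GS716054 at 24 h, and 2771 to 3329 against 4494 to 5377 at 72 h. Summed plasma cell markers were 354 to 433 against 214 to 296 CPM at 72 h. The part of either in the members' values was not tested.

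Set side by side, the IgG sum with GS716054 at 72 h had a log2 fold change of -1.81 ± 0.262 in JEKO, -0.79 ± 0.196 in UPN-1 and -0.35 ± 0.172 in MINO, and the median over tested members was -1.57, -0.76 and -0.37. The median over all tested genes was 0.004, -0.002 and -0.027. The sum of all 8 heavy-chain genes, which IGHM dominates, gave -0.66 ± 0.208, -0.41 and -0.06. No test of the differences between lines in these values was made.

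In DMSO alone, IGHD rose and JCHAIN fell in JEKO between 24 and 72 h of culture. IGHD went from 113, 107 and 131 to 275, 257 and 181 CPM, without overlap. That is a rise of 1.02 ± 0.222 SE on the log2 scale (n = 3), with an adjusted p = 0.00471 by edgeR. JCHAIN fell from 335, 395 and 353 to 105, 250 and 127 CPM (-1.17 ± 0.271, edgeR adjusted p = 0.0067, n = 3), also without overlap. These were 2 of 10 members in a comparison that called 31.7% of 16690 genes, and IGHM differed by -0.08 ± 0.204. The DMSO libraries are also the controls of the GS716054 comparisons. The summed plasma cell markers were 216 to 241 CPM at 24 h and 256 to 555 at 72 h, and their part was not tested.

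In MINO and UPN-1 edgeR called 0 members over time, against 0.0932% and 1.47% of genes. At an unadjusted p under 0.05 there were 4 in MINO (IGHM, IGHG2, IGHG4 and IGHA1, all with higher means at 72 h) and 1 in UPN-1 (IGHD, 0.75 ± 0.309). DESeq2 called 1 in MINO (IGHG4, 1.10) and 0 in UPN-1. IGHD had a higher mean at 72 h in DMSO in all 3 lines, by 0.56 ± 0.39 in MINO, with overlapping libraries in UPN-1 and MINO.

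The 5 lists of genes around these members were tested next: other immunoglobulin chains, transcription factors of the immunoglobulin loci, antibody secretion genes, class switch and hypermutation genes, and protein and small RNA genes beside the heavy-chain locus. With GS716054 in JEKO at 24 h and UPN-1 at 24 h, edgeR called 0 of 88 and 0 of 83 tested genes, with 6 and 3 at an unadjusted p under 0.05 and 2 and 1 called by DESeq2, against 0.018% and 0.0262% of all genes called by edgeR. PRDM1, the factor that drives plasma cell differentiation, rose in JEKO at 72 h (1.34 ± 0.228, edgeR adjusted p = 0.0225), the sole gene called of 88, where 0.3% of all genes were called. In UPN-1 at 72 h, CRIP2 and TMEM121, genes beside the heavy-chain locus, rose (2.42 ± 0.385 and 1.84 ± 0.304, edgeR adjusted p = 0.0175 and 0.0195), and no other of 83 was called, against 0.334% of all genes.

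In MINO edgeR called 5 of 88 list genes at 24 h and 13 at 72 h, where 2.39% and 5.56% of all genes were called, the most of any line. Of 22 antibody secretion genes, 1 fell at 24 h and 3 at 72 h (median -0.13 and -0.37, against 0.01 and -0.03 over all genes). FKBP11, a folding enzyme of the secretory pathway, fell at both times (-0.99 ± 0.181 and -1.13 ± 0.182, edgeR adjusted p = 0.0185 and 0.0042). EDEM1, which sorts misfolded glycoproteins, and SEC11C, of the signal peptidase, fell at 72 h (-0.73 ± 0.16 and -0.61 ± 0.151). Of 22 transcription factors, 2 rose at 24 h (MEF2C and TCF4) and 4 at 72 h (SPIB 1.06 ± 0.237, IKZF3 0.71 ± 0.179, ETS1 0.70 ± 0.171 and TCF4 0.70 ± 0.181). CD79B at 24 h and CD79A at 72 h, the signalling chains of the B cell receptor, rose by 0.69 ± 0.153 and 1.07 ± 0.205, while the lambda gene IGLC3 fell at 72 h (-0.84 ± 0.15, edgeR adjusted p = 0.00746). CRIP2 rose at 72 h (2.84 ± 0.653).

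With the replicate block within the time, the antibody secretion list in MINO at 72 h had 10 of 22 genes lower and 1 higher, where 20.2% of all genes were called in either direction. XBP1 and IRF4, factors of the secretory programme, fell (-0.91 ± 0.129 and -0.66 ± 0.131, edgeR adjusted p = 0.000366 and 0.00335), as did MZB1, which helps assemble antibodies (-0.52 ± 0.116), and CD27, a surface receptor of memory B cells, rose (1.75 ± 0.148). At 24 h in MINO that fit called 9 of 22 transcription factors higher and 1 lower, and 8 of 21 class switch genes lower and 1 higher, where 15.8% of all genes were called. Among 22 secretion genes in JEKO at 72 h it called 2 higher, PRDM1 and SDC1, and 3 lower, TNFRSF17, ERN1 and IRF4, against 3.34% of all genes. In UPN-1 at 72 h it called 5 of 10 other immunoglobulin genes lower, against 3.29% of all genes, and CD79A higher, with IGLL1 at -0.41 ± 0.0763 (edgeR adjusted p = 0.00179).

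Over culture time in DMSO, 12 of 21 class switch and hypermutation genes fell in JEKO and 0 rose, with a list median of -0.61 against 0.05 over all genes, of which 14.6% were called lower and 17.1% higher. Among them were XRCC5 (-1.31 ± 0.216), of the end-joining Ku complex, PRKDC (-1.04 ± 0.235), its kinase partner, and UNG (-1.02 ± 0.293), which removes uracil from DNA. In the same comparison 6 of 14 genes beside the heavy-chain locus rose and 1 fell, led by TMEM121 (2.00 ± 0.487) and NUDT14 (1.21 ± 0.186).

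Among the genes beside the locus are 2 copies of the microRNA gene MIR8071, whose 65-base hairpins lie on the plus strand wholly within exons of IGHG4 and IGHG2. The mature sequence is shown because its hairpins lie inside those members (RefSeq, GRCh38, seed of bases 2 to 8 in capitals), and both copies give the same one.

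hsa-miR-8071, chr14:105621151-105621170 within IGHG4 and chr14:105640203-105640222 within IGHG2: cGGUGGACuggagugggugg

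In MINO the copy within IGHG4 had log2 fold changes of -1.76 ± 0.345 (MIR8071-1, 24 h) and -1.63 ± 0.339 (72 h), beside -0.60 and -1.79 for IGHG4. In MINO that copy had only 23 to 47 reads a library in DMSO and 10 to 12 with GS716054 at 24 h, and 31 to 62 against 8 to 18 at 72 h. MIR8071-2, within IGHG2, was lower there too, at 12.7 to 15.2 CPM in DMSO and 7.4 to 8.12 with GS716054 at 24 h. At 72 h it was 13.8 to 18 against 5.54 to 10.1 CPM. This copy was at 0 in all 12 UPN-1 libraries, where IGHG2 itself had at most 42 reads. Whether counting used strand was not given in the sources used here. Whether reads counted for the microRNA genes came from their transcripts or from those of the IGHG exons was not tested.

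The genes most alike in pattern were found over the 36 libraries, from log2 CPM centred within each line, among 17869 genes other than immunoglobulin segments. For JCHAIN the nearest was ENAM, an enamel matrix gene (Pearson r = 0.97, Spearman rho = 0.98, and 0.96 to 0.98 within lines), followed by UBE2J1 (0.86) and SH3TC1 (0.81). ENAM lies at chr4:70628744-70646824 on the opposite strand, 8717 bases from the nearest JCHAIN exon in GENCODE release 44. In DMSO at 24 h ENAM averaged 150 CPM beside 361 for JCHAIN in JEKO, 304 beside 741 in MINO and 148 beside 367 in UPN-1. Whether reads counted for ENAM came from its own transcripts or from those of JCHAIN was not tested. For IGHM they were MGAT1 (0.84), CCDC9 (0.84) and TMUB1 (0.83). For the IgG sum they were COPDA1 (0.75, but within lines 0.91 for JEKO, 0.54 for MINO and 0.11 for UPN-1), CCND1 (0.75) and TIFA (0.74, and 0.67 to 0.85 within lines). For IGLL5 they were CCND1 (0.76), MBD4 (0.75) and SYVN1 (0.75), where MINO adds almost no variation because its IGLL5 is at 0. The points share libraries, depth and agents, so these values describe likeness alone.

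CCND1 encodes cyclin D1 and, in mantle cell lymphoma, is typically placed next to the heavy-chain locus by a translocation. Within lines its r with the IgG sum was 0.85 (JEKO), 0.53 (MINO) and 0.70 (UPN-1), and with IGLL5 it was 0.87 (JEKO) and 0.76 (UPN-1). In JEKO and UPN-1 the DMSO and GS716054 libraries lie largely apart on both axes. Its log2 fold change with GS716054 was -0.75 ± 0.204 at 24 h and -0.66 at 72 h in JEKO and -0.50 at 72 h in UPN-1, none of them called by edgeR (adjusted p = 0.651, 0.267 and 0.335). With the replicate block within the time it fell at 72 h in JEKO (-0.68, adjusted p = 0.0323) and in UPN-1 (-0.50, adjusted p = 2.25e-05). In UPN-1 at 24 h it averaged 2475 CPM in DMSO and 2023 with GS716054. In MINO the CCND1 mean was 1935 against 1878 CPM at 24 h and 2258 against 2636 at 72 h, with overlapping libraries. The IgG sum of MINO averaged 755 against 644 CPM at 24 h and 892 against 705 at 72 h.

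**Figure D4:**
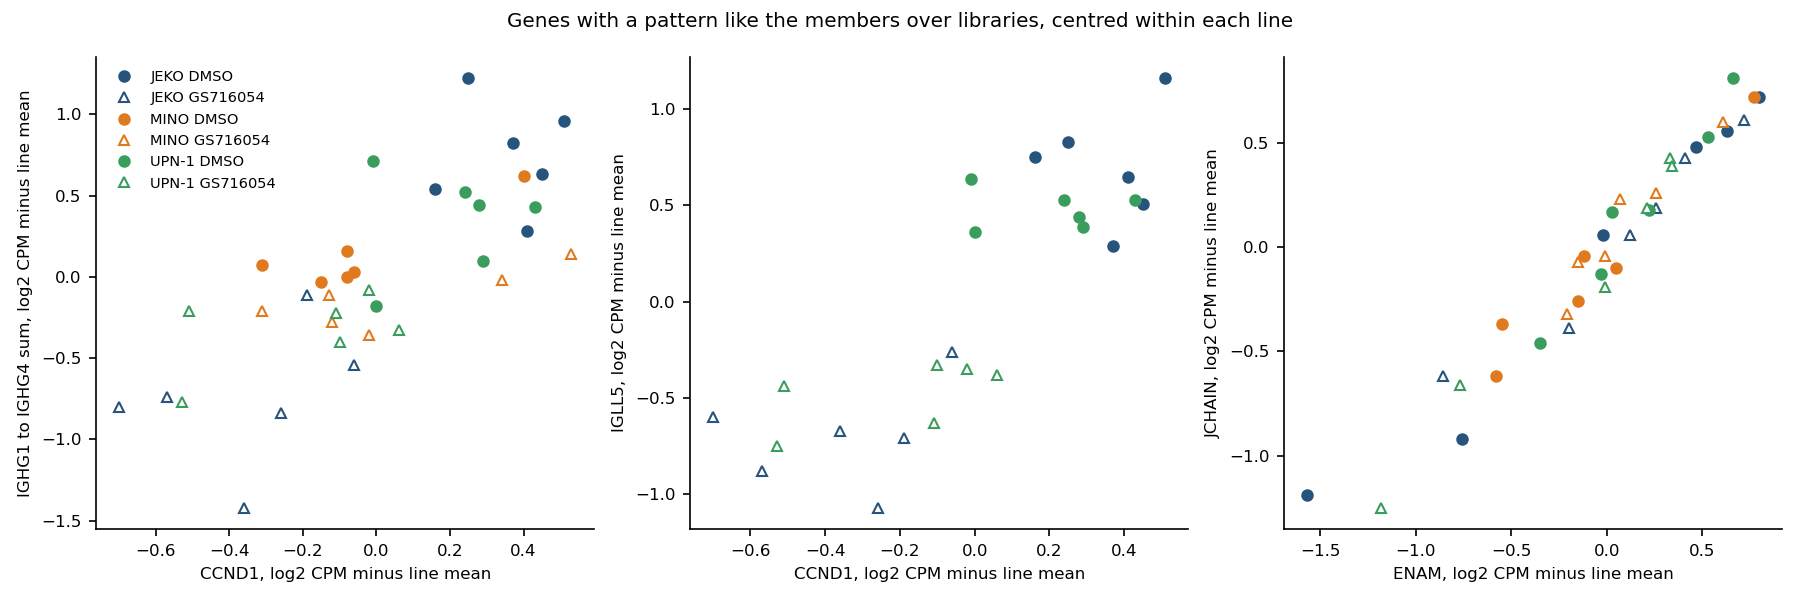
Log2 CPM minus the line's mean in each library: the IgG sum against CCND1 (left), IGLL5 against CCND1 in JEKO and UPN-1 (middle) and JCHAIN against ENAM (right). Colours are lines, filled circles DMSO and open triangles GS716054; DMSO and GS716054 libraries of JEKO and UPN-1 lie largely apart in the first 2 panels and are mixed in the third, where r is 0.97.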

How the data were processed

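RNA was measured in 36 libraries of 3 mantle cell lymphoma lines, with GS716054 or DMSO for 24 or 72 h, 3 biological replicates a group. A Qiagen mRNA kit was used to prepare RNA, per the labels' protocols. The authors deposited a raw count per Ensembl gene for each library; reads were aligned with HISAT2 2.2.1 to GRCh38 and counted with HTSeq 0.13.5, per the submitters' processing notes. Annotation release, strand setting, read length and dose are not given in the sources used here. HTSeq usually drops reads that match several genes, so near-identical constant genes can lose reads; the summary rows of the counter were left out of library sizes and tests.

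Symbols came from GENCODE release 44, which matched 57532 of 58302 identifiers. The members and companion lists were chosen with earlier results of these data known. Each line was fitted with edgeR 4.0.16 (limma 3.58.1, R 4.3.3) on its 12 libraries and 4 groups: TMM scaling, filterByExpr at a minimum count of 10 and total of 15, quasi-likelihood test and Benjamini-Hochberg adjustment over all genes tested, with a call at an adjusted p under 0.05. Lines were compared in 1 model of all 36 libraries. The 4 IGHG genes, and all 8 heavy-chain genes, were also fitted as sums. CPM used TMM effective library sizes over 36 libraries. The fit was tested on simulated data with known changes. Those counts were drawn independently with the same spread for all genes, so that test does not cover libraries that deviate together.

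The named genes are all 10 members, up to 4 called genes per direction and list averaging log2 CPM 1 or more, the leading V segment per class and line with the second light-chain one, and the 3 genes most alike in pattern. Deviations of same-numbered libraries correlated above 0.1 in every pair in JEKO at 72 h (0.28 to 0.56), MINO at 24 h (0.10 to 0.21) and 72 h (0.22 to 0.48) and UPN-1 at 72 h (0.36 to 0.48), and not in JEKO at 24 h (0.05 to 0.19) or UPN-1 at 24 h (0.07 to 0.17), nor across times or lines. The labels do not say what a number marks, so the pairing is a pattern in the data. A replicate block within each time was therefore added after seeing the data. Alternatives were DESeq2 1.42.0, its size factors, no filter, a stricter filter at 50 reads, a replicate block, a fit of the 6 libraries compared, all 36 libraries, and each library left out.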

Additional observations from a re-analysis of the deposited data

How the results depend on the processing

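Over the alternatives tried, 695 of 696 log2 fold changes of members with GS716054 stayed within 1 SD of the values above, where the SD is that of log2 CPM pooled over the replicates of both groups, and the exception was IGHA1 in MINO at 72 h without DMSO replicate 2; all 168 of the summed genes did. In MINO at 72 h this SD is wide (0.588 for IGHM, 0.775 for IGHD and 0.93 for IGHA1). The number of members called moved more, and the cause was not tested. In JEKO at 24 h the 1 call became 4 with DESeq2, 5 with no filter, 3 with the replicate block, 3 with the block within the time, 2 in the fit of all 36 libraries and 0 to 1 without single libraries. In JEKO at 72 h, 6 calls became 1 with only the 6 libraries compared and 4 to 6 without single libraries. In MINO at 24 h, 0 became 4 with the block within the time and 4 with only the 6 libraries. In MINO at 72 h, 1 became 3 with no filter, 2 with the replicate block, 5 with the block within the time and 0 with only the 6 libraries. In UPN-1 at 24 h, 1 became 4 with the block within the time and 0 to 1 without single libraries. In UPN-1 at 72 h, 1 became 2 with DESeq2, 4 with no filter, 2 with the replicate block, 7 with the block within the time, 0 with only the 6 libraries and 1 to 2 without single libraries. Over time in DMSO, 0 became 1 with DESeq2, 4 with no filter and 3 with the replicate block in MINO, and 1 with no filter, 1 with the replicate block and 0 to 1 without single libraries in UPN-1. Over all alternatives, single libraries left out included, all genes called went from 3 to between 0 and 44 in JEKO at 24 h, from 50 to between 2 and 557 at 72 h, from 359 to between 27 and 2557 in MINO at 24 h, from 835 to between 101 and 3029 at 72 h, from 4 to between 2 and 228 in UPN-1 at 24 h, from 51 to between 5 and 1139 at 72 h, and over time from 5299 to between 2717 and 6150 in JEKO, from 14 to between 4 and 1819 in MINO and from 224 to between 1 and 3084 in UPN-1.

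With GS716054 the sign changed over the alternatives for IGHA1 in JEKO at 24 h (-0.02 to 0.34), IGHM in MINO at 24 h (-0.05 to 0.07) and 72 h (-0.26 to 0.49), IGHD (-0.11 to 1.00) and JCHAIN (-0.12 to 0.38) in MINO at 72 h, and JCHAIN in UPN-1 at 72 h (-0.61 to 0.06). Of these, IGHD in MINO and JCHAIN in UPN-1 were called with the block within the time and under no other setting. Over time and between lines, the differences that changed sign were not called. In JEKO over time IGHM was 0.01 with the stricter filter and -0.21 to 0.01 without single libraries, the sum of heavy-chain genes 0.07 with the stricter filter, 0.01 with only the 6 libraries and -0.15 to 0.09 without single libraries, IGHG2 -0.06 to 0.73, IGHG4 -0.09 to 0.28 and IGHA1 -0.04 to 0.24 without single libraries. In MINO over time IGHG1 ran from -0.14 to 0.33 and IGHG3 from -0.08 to 0.21 without single libraries. In UPN-1 over time the replicate block gave -0.02 for IGHG3, JCHAIN and the IgG sum, which was -0.00 with DESeq2. Without single libraries IGHM ran from -0.07 to 0.30, IGHG1 from -0.50 to 0.05, IGHG2 from -0.20 to 0.23, IGHG3 from -0.21 to 0.22, JCHAIN from -0.32 to 0.32, the IgG sum from -0.20 to 0.21 and the heavy-chain sum from -0.05 to 0.32. Between lines, JCHAIN in UPN-1 against JEKO was -0.02 with DESeq2 and with its size factors and -0.16 to 0.17 without single libraries, and the heavy-chain sum in MINO against JEKO was 0.00 with the stricter filter and -0.09 to 0.01 without single libraries. That sum passed the threshold in UPN-1 against JEKO with no filter (-0.54) and with only the 6 libraries (-0.52), and in UPN-1 against MINO with only the 6 libraries (-0.51). Depth limits IGHE and IGLL5 where groups are at 0 reads, and IGHG4 and IGHA1 in UPN-1, to counts at or little above the floor of 3 reads. IGHG1 and IGHG2 in UPN-1 rest on 6 to 42 and 12 to 42 reads a library.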

Other observations

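Variable segments, counted apart from the constant genes, gave each line 1 leading light-chain gene. In JEKO, IGKV3-20 averaged 1127 CPM over 12 libraries and made up 92.2 to 97.9% of kappa and lambda variable reads, and IGHV2-70 averaged 336 CPM and made up 87.1 to 95.5% of heavy-chain variable reads. In MINO the leading genes were IGLV3-19 (1909 CPM, 87.1 to 95.4%) and IGHV3-21 (753 CPM, 95.9 to 98.1%). In UPN-1 it was IGKV1D-12 (517 CPM, 90.6 to 95.3%), whereas all 151 heavy-chain variable segments together had 11.5 to 22.9 CPM, led by the pseudogene IGHV5-78 at 14.1 CPM. UPN-1, whose IGHM stood at 3758 ± 160 CPM in DMSO at 24 h, thus had hardly any countable heavy-chain variable reads. A rearranged segment can carry mutations that keep reads from mapping, and whether this applied here was not tested.

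The leading segments had lower means with GS716054 at both times in JEKO and UPN-1, as did the leading heavy-chain segment of MINO. In JEKO, IGHV2-70 averaged 474 CPM in DMSO and 311 with GS716054 at 24 h, and 327 against 230 at 72 h, and IGKV3-20 averaged 1491 against 971 and 1132 against 913. In UPN-1, IGKV1D-12 averaged 551 against 493 CPM at 24 h and 587 against 439 at 72 h. IGHV5-78, low in that line, averaged 14.2 against 12 CPM and 16.4 against 13.8. In MINO, IGHV3-21 averaged 555 against 539 CPM and 987 against 932, and IGLV3-19 had higher means with GS716054, at 1517 against 1553 and 2215 against 2351. The second light-chain segment of MINO, IGLV9-49, had lower means, at 128 against 88.7 and 200 against 91.6 CPM. That of JEKO, IGLV6-57, averaged 8.87 against 9.83 and 9.72 against 12 CPM. That of UPN-1, IGKV1-12, averaged 13.1 against 7.79 and 9.86 against 6.76 CPM. No test was made of these means.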
